A study of Mus musculus with 18 samples.

Results

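Imprinted genes are transcribed mainly from the copy inherited from 1 parent, and the 44 genes described here are those of the listed imprinted loci outside the Dlk1-Dio3 region. They were taken by name from a list of imprinted genes that was drawn up with earlier results of these arrays known, so a comparison of their share of calls with that of all genes is a description. For 43 of them, Slc22a3 excepted, the arrays held a probe set (the group of short probes that reads 1 transcript) assigned to a single gene symbol, out of 18193 genes measured in all. Where several probe sets read a gene, the brightest on average was used. The genes lie in 20 imprinted loci, and by textbook assignment 23 of the measured genes are expressed from the paternal copy and 19 from the maternal copy, while Gnas has transcripts of both kinds. The arrays do not tell parental copies apart, so every value is the sum over both.

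In mammals, a stretch of DNA at most imprinted loci carries methylation set in the egg or the sperm and kept through early development. At a few others, such as Sfmbt2 and Slc38a4, a histone mark set in the egg takes this part. The mark decides which parental copy of the neighbouring genes is used, often through a long noncoding RNA or a blocked enhancer. Many of the genes act on fetal growth, the placenta or the brain, and imprints are known to be unstable in cultured pluripotent cells, which is why these genes are often read in such lines. Not every member is imprinted in every tissue: Ube3a is imprinted in neurons, several genes near Kcnq1ot1 in the placenta, and Blcap and Commd1 mainly in brain.

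The 18 arrays came from 6 mouse pluripotent lines with 3 arrays each. The embryonic stem (ES) lines were R1, of strain 129X1/SvJ x 129S1 F1, and ESC2, of strain B6 x D2 F1. The induced pluripotent (iPS) lines, which the design text says came from mouse embryonic fibroblasts (arrays of those cells were not analysed here), were IP14D-1, IP20D-3 and IP36D-3, all B6 x D2 F1 like ESC2, and IP14D-101, B6 x 129S2 F1. All lines were grown with LIF on feeder fibroblasts that had been stopped with mitomycin C. The medium held fetal serum or a serum substitute, without a record of the choice made for each line. No reprogramming method, passage or sex is given for a line, and each line stands for itself alone. The design text calls the 3 arrays of a line biological replicates, and no label says that they came from separate cultures, so p-values measure the spread between these arrays, which may be technical.

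Values are log2 intensities. A line mean carries its SD over n = 3 arrays, and a difference carries the standard error of limma's model over all 18 arrays. A gene was called changed at a Benjamini-Hochberg adjusted p under 0.05 over all 18193 genes together with a log2 difference of at least 1. As a reference for dim signals, the 71 olfactory and vomeronasal receptor genes had a 95th percentile between 4.23 (IP36D-3) and 4.59 (R1). Of the 43 genes, 35 lay above that reference in all 6 lines and 6 in no line, namely Usp29, Zim1, Peg12, Asb4, Nap1l5 and Rasgrf1. Peg10 was above it in 4 lines and Airn in 5. A highest line mean of at least 6 was reached by 36 genes.

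Before the gene results, the makeup of the cultures was read from marker genes. The pluripotency genes stood at list means of 10.58 in ESC2 to 11.41 in IP14D-101, with all 12 above the dim reference in every line. The fibroblast list (29 measured genes) had its lowest mean in IP20D-3, with array means of 4.82 to 4.95 and summed intensities of 4415 to 4701. It was next lowest in IP36D-3, at 5.07 to 5.18 and 3957 to 4267, and in IP14D-101, at 5.31 to 5.47 and 5865 to 6410. R1 had 5.68 to 5.73 and 9521 to 10270, ESC2 5.70 to 5.82 and 5931 to 6661, and IP14D-1 5.97 to 6.05 and 8829 to 9356. Of its 7 defining collagen, matrix and surface markers, 1 was above the dim reference in IP20D-3, 3 in IP14D-101, 4 each in R1, ESC2 and IP36D-3, and 5 in IP14D-1. Each line has its own reference, 4.57 in IP20D-3 and 4.23 in IP36D-3, so these counts also depend on it. Levels in IP20D-3 and IP36D-3 were 4.55 and 4.57 for Col1a1, 4.35 and 4.57 for Col1a2, and 4.47 and 4.52 for Dcn. Lum and Postn were at or under the reference in all 6 lines. The list of primitive and visceral endoderm markers was high in IP14D-101, at 7.59 to 7.80 against 5.68 to 6.23 on all arrays of the other lines. Of its 15 genes, 10 were called higher than ESC2 (4.67% of all genes) and 0 lower. Foxa2 (0.66), Afp (0.28), Sparc (0.25), Ttr (0.12) and Lamb1 (-0.06) were not called. Gata6 stood at 7.34 in IP14D-101 and at 3.68 to 4.85 in the other lines. The beta-actin probe sets gave a 3'/5' quotient of 1.48 to 1.56 in ESC2 and of 1.12 to 1.31 elsewhere. The mean signal of the 18S rRNA probe sets was 107 to 525 in ESC2, IP20D-3 and IP36D-3 and 24.8 to 57.5 in the other lines. The trophectoderm list (12 genes) had its highest mean in R1, at 6.43 to 6.51 against 5.30 to 6.01 elsewhere, with only Krt7, Krt8 and Krt18 called higher than in ESC2. Its defining markers were not called in R1 against ESC2, with 0.21 for Cdx2, 0.59 for Gata3 and -0.04 for the dim Elf5. Tfap2c was at -0.63, also without a call. In cultures like these, fewer cells of a type and less RNA per cell cannot be told apart.

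**Figure D1:**
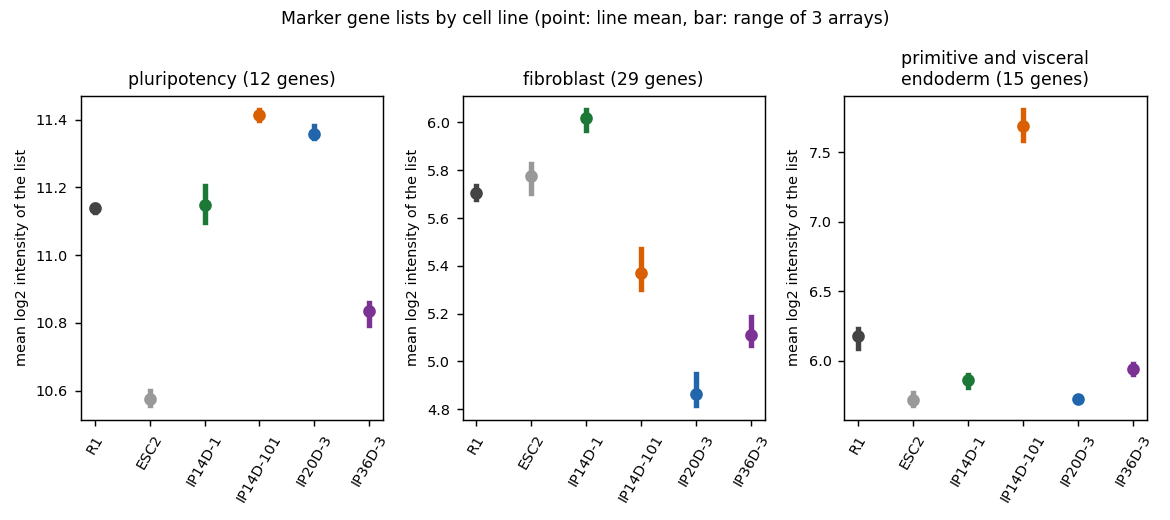
Mean log2 intensity of 3 marker lists in each line, with points for line means and bars for the range of the 3 arrays, on separate axes that do not start at 0. Endoderm markers stand out in IP14D-101 at 7.59 to 7.80, and fibroblast markers are lowest in IP20D-3 at 4.82 to 4.95.

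Promoter sequences help to read the loci, and those of 39 members were found in a RefSeq table of GRCm38.p6, as 59 windows of 300 bases from 250 before to 50 after a transcription start. Impact, Sgce, Nap1l4, Cdkn1c and Peg10 were not among them. ZFP57, the zinc finger protein that protects imprints, is known to bind TGCCGC when its CpG is methylated. That motif, searched on both strands, occurred in 12 of 59 member windows (20.3%) and in 3813 of all 32851 windows (11.6%), and member windows had a median of 15 CpG sites against 7. The windows shown are those of Grb10, Nnat and Peg3, which had the widest line differences among members with a window, and of Mest and Plagl1, germline-imprinted promoters whose genes differed among lines. They are written 5′ to 3′ on the gene's strand, with capitals marking TGCCGC or its reverse complement: Grb10 at chr11:12037371-12037670, minus strand, Nnat at chr2:157559828-157560127, plus strand, Peg3 at chr7:6730370-6730669, minus strand, Mest at chr6:30737800-30738099, plus strand, and Plagl1 at chr10:13090582-13090881, plus strand.
Grb10: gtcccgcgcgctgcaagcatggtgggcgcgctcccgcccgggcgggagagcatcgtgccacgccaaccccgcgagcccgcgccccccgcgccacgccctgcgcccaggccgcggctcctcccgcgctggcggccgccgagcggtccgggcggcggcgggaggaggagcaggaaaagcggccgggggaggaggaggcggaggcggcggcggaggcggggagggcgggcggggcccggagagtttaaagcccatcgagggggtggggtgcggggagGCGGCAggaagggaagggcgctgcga
Nnat: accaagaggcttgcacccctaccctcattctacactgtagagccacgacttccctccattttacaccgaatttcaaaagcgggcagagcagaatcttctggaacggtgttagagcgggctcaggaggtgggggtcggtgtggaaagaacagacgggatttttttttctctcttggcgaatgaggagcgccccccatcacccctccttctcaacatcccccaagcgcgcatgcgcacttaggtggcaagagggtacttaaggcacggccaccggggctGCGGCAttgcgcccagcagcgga
Peg3: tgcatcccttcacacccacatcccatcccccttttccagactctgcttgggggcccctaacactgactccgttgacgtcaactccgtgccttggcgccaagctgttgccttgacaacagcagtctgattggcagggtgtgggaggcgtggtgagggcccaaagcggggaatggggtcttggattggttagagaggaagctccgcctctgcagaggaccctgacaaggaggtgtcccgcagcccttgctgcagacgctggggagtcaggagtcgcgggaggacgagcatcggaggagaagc
Mest: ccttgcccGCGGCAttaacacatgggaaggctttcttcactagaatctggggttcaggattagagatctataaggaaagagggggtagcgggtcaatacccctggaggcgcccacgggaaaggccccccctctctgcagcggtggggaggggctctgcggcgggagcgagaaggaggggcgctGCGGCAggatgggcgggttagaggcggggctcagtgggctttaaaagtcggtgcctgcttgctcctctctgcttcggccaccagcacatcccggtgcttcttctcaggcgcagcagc
Plagl1: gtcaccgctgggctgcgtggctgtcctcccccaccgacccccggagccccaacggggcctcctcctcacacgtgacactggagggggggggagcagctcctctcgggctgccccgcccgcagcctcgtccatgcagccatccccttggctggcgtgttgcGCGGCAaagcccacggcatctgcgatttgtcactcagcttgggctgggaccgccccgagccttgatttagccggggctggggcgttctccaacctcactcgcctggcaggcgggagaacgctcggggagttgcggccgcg
The Mest window held 2 copies of the motif, those of Grb10, Nnat and Plagl1 1 each, and the Peg3 window 0. Windows not shown were a second for Grb10 and an upstream one for Mest, each with 0 copies, and one for Mest that overlaps the window shown. Usp29 starts 164 bases away from Peg3 on the other strand, and their windows share 263 bases. A match is a description of letters and not a measured binding site.

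Levels of the imprinted genes differed widely among the 6 lines. In limma's moderated F test over line means, 24 of the 43 genes (55.8%) were called, against 25.9% of all genes measured. Among genes with a highest line mean of at least 6 the shares were 23 of 36 (63.9%) and 40.9%. The paternally expressed genes gave 15 calls of 23 and the maternally expressed ones 9 of 19. Called genes ranged over 1.03 to 4.23 in log2 between their lowest and highest line, and the 13 genes above the dim reference everywhere without a call over 0.31 to 0.9956. The median range of the 43 genes was 1.10, against 0.64 for all genes. Of the 23 called genes with a level of at least 6, IP14D-101 was the lowest line in 8, IP20D-3 in 6, and R1 and ESC2 in 3 each. ESC2 was the highest in 7 and R1 in 6. The same counts over all genes are not given here, so these only describe the list.

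**Figure D2:**
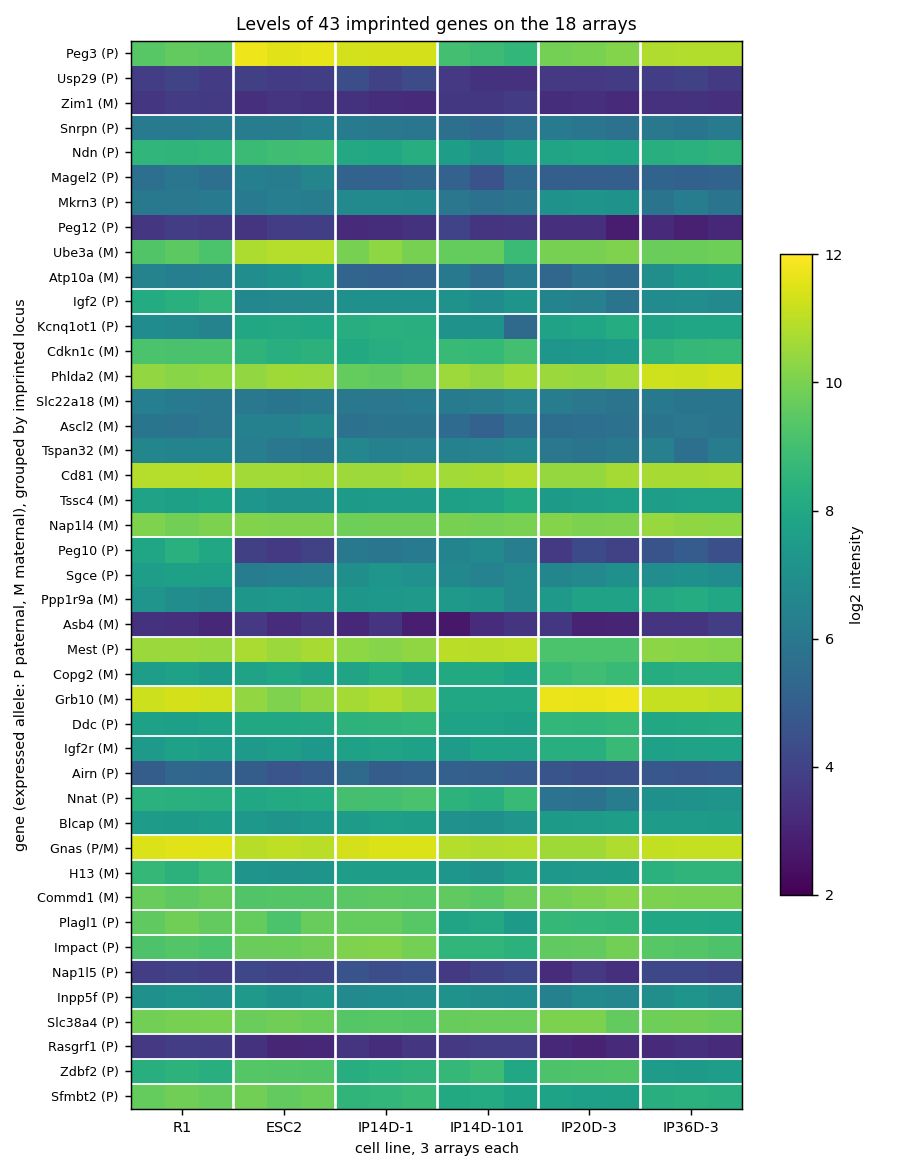
Log2 intensity of the 43 measured imprinted genes (rows, grouped by locus with white lines, P or M for the expressed allele) on the 18 arrays (columns, 3 per line). Rows such as Peg10, Grb10, Nnat and Peg3 change colour between lines and keep it within a line, while Cd81, Nap1l4 and Slc38a4 stay even in the probe sets used.

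Peg10 and Sgce on chromosome 6 share a promoter region and the paternal copy. Peg10, a gene derived from a retrotransposon and needed for the placenta, had the widest range of all members. It read 7.90, 8.34 and 8.01 in R1 and 3.89, 3.69 and 3.98 in ESC2. Its iPS arrays read 6.04, 5.91 and 6.12 in IP14D-1, 6.50, 6.79 and 6.30 in IP14D-101, 3.71, 4.26 and 3.94 in IP20D-3, and 4.61, 4.91 and 4.43 in IP36D-3. R1 was above every other array, IP14D-101 and IP14D-1 followed, and the arrays of ESC2 and IP20D-3 overlapped near the dim reference. Against ESC2 the difference was 4.23 ± 0.16 in R1 (adjusted p = 8.80e-13), 2.68 ± 0.16 in IP14D-101 (adjusted p = 2.40e-10) and 2.17 ± 0.16 in IP14D-1 (adjusted p = 1.08e-08). The ESC2 mean lay under the dim reference, so the size of these rises is uncertain. Among the B6 x D2 iPS lines, IP20D-3 was lower than IP14D-1 by 4.15-fold and IP36D-3 by 2.59-fold, the last not a call with a pseudocount of 16 (-0.98). IP20D-3 also lay under its dim reference, so the size of the first is uncertain too. Peg10 has a single probe set. R1 was also the line with the highest mean of the trophectoderm list, in which keratins alone were called higher than in ESC2. The part of these markers in its Peg10 level was not tested.

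Sgce, the epsilon-sarcoglycan of the muscle and nerve cell membrane, moved over a narrower range with the same extremes. It read 7.55, 7.67 and 7.63 in R1, and 6.20, 6.32 and 6.35 in ESC2. Among iPS lines it stood at 6.97, 7.25 and 7.06 in IP14D-1, 6.67, 6.45 and 6.73 in IP14D-101, 6.60, 6.70 and 7.02 in IP20D-3, and 6.90, 7.02 and 6.87 in IP36D-3. All R1 arrays were above all others, and all ESC2 arrays below all others. Only the difference between these ES lines was called (1.33 ± 0.11, adjusted p = 1.19e-08), and it was 0.61 as a mean over both Sgce probe sets, without a call. Of the maternally expressed neighbours, Ppp1r9a (neurabin, an actin-binding protein) had its lowest mean in R1 and its highest in IP36D-3. It read 7.22, 6.91 and 6.79 in R1, and 7.29, 7.32 and 7.25 in ESC2. Values in iPS lines were 7.28, 7.32 and 7.38 in IP14D-1, 7.38, 7.31 and 6.80 in IP14D-101, 7.42, 7.77 and 7.75 in IP20D-3, and 8.03, 8.18 and 7.96 in IP36D-3. Its F test was called (range 1.09), though not without R1 replicate 3 or with a pseudocount of 16, and none of the 8 contrasts between lines was. IP36D-3 lay above all other arrays, and R1 overlapped IP14D-101. Asb4 did not leave the dim range (3.16 to 3.61). Pon2 and Pon3, paraoxonases of the same cluster named after their values were seen, were both called higher in R1 than in ESC2, by 1.97 and 1.26, with Pon3 under the dim reference. Other genes of the cluster went the other way, with -1.31 for Tfpi2, called but under the dim reference in both lines, and -0.56 for Calcr, not called. Pon2 stood at 7.17 ± 0.12 in R1 and between 4.50 and 5.20 in the other lines.

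Grb10 on chromosome 11, an adaptor protein that restrains insulin and IGF signalling and comes from the maternal copy outside the brain, had the second widest range. It read 11.23, 11.36 and 11.27 in R1, and 10.37, 10.07 and 10.33 in ESC2. In iPS cells it measured 10.66, 10.80 and 10.56 in IP14D-1, 7.97, 8.01 and 7.99 in IP14D-101, 11.71, 11.66 and 11.76 in IP20D-3, and 11.11, 11.13 and 11.05 in IP36D-3. IP20D-3 was highest and IP14D-101 lowest, and the 3 arrays of IP14D-101 lay together far below those of every other line. IP14D-101 was 4.81-fold below ESC2 (adjusted p = 1.11e-12) and IP20D-3 2.74-fold above it (adjusted p = 1.35e-10). R1 was 2.04-fold above ESC2 and IP20D-3 2.05-fold above IP14D-1, both next to the limit of 1 in log2. The call for R1 was lost over all probe sets (0.66) and without R1 replicate 2 (0.99) or ESC2 replicate 2 (0.94), and that for IP14D-1 without IP14D-1 replicate 3 (0.98) or after repeated quantile normalisation (0.97). Both other Grb10 probe sets, with means above 6, shared the direction in all 4 contrasts. The neighbouring Ddc, the enzyme that makes dopamine and serotonin from their precursors, had line means of 7.73 to 8.62 and no call.

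Peg3 on chromosome 7, a zinc finger DNA-binding protein from the paternal copy, was highest in ESC2. It read 9.41, 9.59 and 9.53 in R1, and 11.74, 11.54 and 11.62 in ESC2. The iPS lines read 11.30, 11.35 and 11.36 in IP14D-1, 9.01, 8.84 and 8.63 in IP14D-101, 9.91, 9.97 and 10.15 in IP20D-3, and 10.81, 10.83 and 10.85 in IP36D-3. No line overlapped another in its arrays, with ESC2 followed by IP14D-1, IP36D-3, IP20D-3, R1 and IP14D-101. Its log2 difference from ESC2 was -2.81 ± 0.09 in IP14D-101 (adjusted p = 3.98e-13), -2.12 ± 0.09 in R1 (adjusted p = 7.95e-12) and -1.62 ± 0.09 in IP20D-3 (adjusted p = 1.42e-10). IP20D-3 was also 2.51-fold below IP14D-1. Both other probe sets with a mean of at least 6 shared each direction. Averaging in its dim probe sets took the values for IP20D-3 to -0.95 against ESC2 and -0.85 against IP14D-1, without a call. Usp29, a ubiquitin protease whose promoter is the other side of the same sequence, stayed in the dim range with 3.52 to 4.23, and so did the maternally expressed zinc finger gene Zim1 with 3.31 to 3.68.

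In the Prader-Willi and Angelman region of chromosome 7, the MAGE family genes Ndn and Magel2, which act in neurons and are expressed from the paternal copy, were highest in ESC2 in the probe sets used. Ndn (necdin) read 8.58, 8.54 and 8.64 in R1, and 8.82, 8.92 and 8.96 in ESC2. Its iPS arrays read 8.03, 7.99 and 8.24 in IP14D-1, 7.56, 7.18 and 7.62 in IP14D-101, 7.83, 7.97 and 7.88 in IP20D-3, and 8.28, 8.40 and 8.52 in IP36D-3. Every iPS array was below every ES array. The log2 difference of Ndn from ESC2 was -1.45 ± 0.10 in IP14D-101 (adjusted p = 2.77e-09) and -1.01 ± 0.10 in IP20D-3 (adjusted p = 2.38e-07). The second call was lost without ESC2 replicate 2 (-0.9975) or 3 (-0.98), and without IP20D-3 replicate 1 (-0.98) or 3 (-0.9997), with a pseudocount of 16 (-0.96), and averaging all 8 probe sets gave -0.72 and -0.60 without calls. All 7 other probe sets shared both directions, but only 2 of them put ESC2 above R1. Magel2, a partner of ubiquitin ligases, read 5.66, 5.92 and 5.67 in R1, and 6.31, 6.25 and 6.55 in ESC2. Among iPS lines it stood at 5.17, 5.13 and 5.33 in IP14D-1, 5.13, 4.55 and 5.42 in IP14D-101, 5.03, 5.03 and 5.01 in IP20D-3, and 5.22, 5.11 and 5.21 in IP36D-3. All iPS arrays were below those of R1, which were below those of ESC2, and IP14D-101 spread the most. It was called lower than ESC2 in all 4 iPS lines, with -1.19 ± 0.15 in IP36D-3 and -1.35 ± 0.15 in IP20D-3 for example. Those in IP14D-1 and IP36D-3 were no calls with a pseudocount of 16 (-0.90 and -0.92). These contrasts share the 3 ESC2 arrays.

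Mkrn3, a makorin ring finger protein that acts in the timing of puberty, was highest in IP20D-3. It read 6.04, 6.01 and 6.06 in R1, and 6.17, 6.26 and 6.23 in ESC2. Values in iPS lines were 6.73, 6.74 and 6.67 in IP14D-1, 5.98, 5.76 and 5.83 in IP14D-101, 7.14, 7.18 and 7.10 in IP20D-3, and 5.86, 6.18 and 5.83 in IP36D-3. Its IP20D-3 arrays were above all others and exceeded IP36D-3 by 1.18 ± 0.09 (adjusted p = 8.97e-09). Snrpn, a splicing protein, had line means of 5.66 to 6.27 and no call. It was read by a single probe set, since 6 others carry the symbols of both Snurf and Snrpn and were not used. Peg12 was dim in all lines (3.09 to 3.74).

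The maternally expressed genes of the region were highest in ESC2 or IP36D-3. Ube3a, a ubiquitin ligase whose loss causes Angelman syndrome, read 9.27, 9.48 and 9.16 in R1, and 10.76, 10.88 and 10.89 in ESC2. In iPS cells it measured 9.96, 10.29 and 9.95 in IP14D-1, 9.63, 9.63 and 8.82 in IP14D-101, 9.93, 9.96 and 10.08 in IP20D-3, and 9.72, 9.76 and 9.81 in IP36D-3. ESC2 was above all other arrays. Log2 differences from ESC2 were -1.54 ± 0.16 in R1 (adjusted p = 2.82e-07), -1.49 ± 0.16 in IP14D-101 (adjusted p = 4.07e-07) and -1.08 ± 0.16 in IP36D-3 (adjusted p = 3.07e-05), and its 5 other probe sets shared each direction. Among the 5 lines other than ESC2, 21 of the 43 genes were called in the F test (20.4% of all genes), and Ube3a, Magel2 and Ascl2 no longer were. Atp10a, a phospholipid flippase, read 6.46, 6.32 and 6.41 in R1, and 6.89, 7.09 and 7.38 in ESC2. The iPS lines read 5.25, 5.16 and 5.26 in IP14D-1, 6.06, 5.58 and 6.11 in IP14D-101, 5.29, 5.75 and 5.52 in IP20D-3, and 6.94, 7.29 and 7.43 in IP36D-3. IP36D-3 and ESC2 overlapped at the top, and IP14D-1 and IP20D-3 were lowest, without overlap with R1, ESC2 or IP36D-3. Its log2 differences from ESC2 were -1.90 ± 0.15 in IP14D-1, -1.60 ± 0.15 in IP20D-3 and -1.20 ± 0.15 in IP14D-101. IP36D-3 exceeded IP14D-1 by 2.00 ± 0.15 (adjusted p = 1.80e-08) and IP20D-3 by 3.25-fold. Averaging its 4 probe sets, 3 of them with a mean under 6, left -0.88 in IP14D-1 and -0.54 in IP14D-101, without calls. IP14D-101 was not lower than ESC2 in another probe set (5.87 against 5.82), nor in a dim one (3.29 against 3.03). It was lower in the remaining one (4.38 against 5.67). IP14D-1 was not lower than ESC2 in the dim one either (3.09).

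On distal chromosome 7, Igf2, the fetal growth factor made from the paternal copy, was highest in R1. It read 8.16, 8.36 and 8.57 in R1, and 6.67, 6.71 and 6.75 in ESC2. Its iPS arrays read 7.01, 7.01 and 7.02 in IP14D-1, 7.08, 6.85 and 7.17 in IP14D-101, 6.51, 6.36 and 5.86 in IP20D-3, and 6.83, 6.90 and 6.80 in IP36D-3. R1 lay above every other array and IP20D-3 below. The rise in R1 over ESC2 was 1.66 ± 0.13 (adjusted p = 1.20e-08), and 0.87 without a call when the dim probe set was averaged in. Igf2r, the receptor that clears IGF2 and is expressed from the maternal copy of chromosome 17, had line means of 7.43 in ESC2 to 8.42 in IP20D-3, a range of 0.9956, just under the limit. Its antisense silencer Airn stayed between 4.52 and 5.18. The H19 RNA of the Igf2 locus was not analysed here.

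Kcnq1ot1, the noncoding RNA that silences its neighbours on the paternal copy, read 6.88, 6.74 and 6.49 in R1, and 7.97, 8.04 and 7.99 in ESC2. Among iPS lines it stood at 8.23, 8.35 and 8.26 in IP14D-1, 7.08, 7.12 and 5.48 in IP14D-101, 7.78, 7.93 and 8.19 in IP20D-3, and 7.77, 7.92 and 7.86 in IP36D-3. R1 and IP14D-101 were below all arrays of the other 4 lines, and IP14D-101 replicate 3 stood well below the other arrays of its line. The log2 difference from ESC2 was -1.30 ± 0.28 in R1 (adjusted p = 0.000716) and -1.44 ± 0.28 in IP14D-101 (adjusted p = 0.000259). The second was -0.90 and no call without IP14D-101 replicate 3, and the first was -0.88 and no call over all probe sets. The 5 other probe sets shared both directions.

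The maternally expressed neighbours of Kcnq1ot1 had their extremes in different lines. Cdkn1c, the cell-cycle inhibitor p57, read 9.18, 9.15 and 9.13 in R1, and 8.51, 8.33 and 8.43 in ESC2. Values in iPS lines were 8.06, 8.22 and 8.34 in IP14D-1, 8.79, 8.71 and 9.01 in IP14D-101, 7.27, 7.33 and 7.53 in IP20D-3, and 8.49, 8.67 and 8.71 in IP36D-3. IP20D-3 was below all other arrays and R1 above them. IP20D-3 was lower than IP36D-3 by 2.38-fold (adjusted p = 2.05e-08) and than ESC2 by 2.06-fold (adjusted p = 6.63e-08), the latter -0.99 and no call without IP20D-3 replicate 1 and -0.98 with a pseudocount of 16. Phlda2, which restrains placental growth, read 10.38, 10.20 and 10.30 in R1, and 10.39, 10.59 and 10.54 in ESC2. In iPS cells it measured 9.64, 9.54 and 9.76 in IP14D-1, 10.52, 10.39 and 10.63 in IP14D-101, 10.48, 10.44 and 10.61 in IP20D-3, and 11.28, 11.25 and 11.34 in IP36D-3. IP36D-3 was above and IP14D-1 below all other arrays, 3.13-fold apart (adjusted p = 5.02e-10). Ascl2, a transcription factor of the placental trophoblast, read 5.88, 5.80 and 5.97 in R1, and 6.41, 6.40 and 6.57 in ESC2. The iPS lines read 5.72, 5.85 and 5.85 in IP14D-1, 5.50, 5.14 and 5.65 in IP14D-101, 5.61, 5.64 and 5.71 in IP20D-3, and 5.84, 5.98 and 5.84 in IP36D-3. ESC2 was above all other arrays, and IP14D-101 was lower by 2.04-fold (adjusted p = 1.81e-07), a call lost without ESC2 replicate 3 (-0.97), without IP14D-101 replicate 2 (-0.88) or with a pseudocount of 16 (-0.81). Slc22a18, Tspan32, Cd81, Tssc4 and Nap1l4 had ranges of 0.31 to 0.66 and no call, with line means of 5.94 to 6.25, 5.95 to 6.54, 10.49 to 10.91, 7.17 to 7.83 and 9.81 to 10.37 in that order. Cd81 is a surface tetraspanin and Nap1l4 a histone chaperone.

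Mest on chromosome 6, a hydrolase-like protein of mesoderm from the paternal copy, was lowest in IP20D-3. It read 10.51, 10.51 and 10.47 in R1, and 10.74, 10.50 and 10.71 in ESC2. Its iPS arrays read 10.28, 10.20 and 10.32 in IP14D-1, 10.98, 10.94 and 11.00 in IP14D-101, 9.18, 9.16 and 9.16 in IP20D-3, and 10.25, 10.21 and 10.15 in IP36D-3. IP20D-3 was below all other arrays and IP14D-101 above them. IP20D-3 was lower than ESC2 by 2.8-fold (adjusted p = 1.69e-11), than IP14D-1 by 2.15-fold and than IP36D-3 by 2.06-fold. Copg2, a coat protein of Golgi vesicles encoded next to Mest and expressed from the maternal copy, was highest in that line. It read 7.57, 7.71 and 7.45 in R1, and 7.76, 7.99 and 7.72 in ESC2. Among iPS lines it stood at 7.84, 8.17 and 7.85 in IP14D-1, 8.06, 8.07 and 7.79 in IP14D-101, 8.76, 8.95 and 8.75 in IP20D-3, and 8.19, 8.29 and 8.30 in IP36D-3. Those of IP20D-3 lay above all others. The F test was called, but the difference from ESC2 (0.9964 ± 0.11) was under the limit.

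Nnat on chromosome 2, a small membrane protein of the brain from the paternal copy, had the third widest range. It read 8.40, 8.36 and 8.26 in R1, and 7.99, 8.13 and 8.15 in ESC2. Values in iPS lines were 9.05, 9.03 and 9.11 in IP14D-1, 8.45, 8.31 and 8.77 in IP14D-101, 5.81, 5.79 and 6.24 in IP20D-3, and 7.01, 7.12 and 7.19 in IP36D-3. IP14D-1 was above all other arrays, IP36D-3 and then IP20D-3 below all others. IP20D-3 fell 4.42-fold below ESC2 (adjusted p = 1.05e-10) and 8.68-fold below IP14D-1 (adjusted p = 5.06e-12). IP36D-3 was 3.88-fold below IP14D-1, and IP20D-3 2.24-fold below IP36D-3, the last -0.98 and no call with a pseudocount of 16. Blcap, the gene whose intron holds Nnat, kept line means of 7.11 to 7.57. The falls of Mest, Nnat and Cdkn1c in IP20D-3 came in the line with the lowest mean of the fibroblast list, though not the lowest summed intensity, which was in IP36D-3. In IP20D-3, 10 of 29 markers were above its dim reference, against 19 in IP36D-3 and 21 in ESC2 and in IP14D-1. That reference differed by line, at 4.57 in IP20D-3, 4.53 in IP14D-1, 4.27 in ESC2 and 4.23 in IP36D-3. The part of feeder RNA in these falls was not tested.

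Plagl1 on chromosome 10, a zinc finger regulator of other imprinted genes from the paternal copy, differed by line. It read 9.54, 9.84 and 9.61 in R1, and 9.63, 9.17 and 9.67 in ESC2. In iPS cells it measured 9.65, 9.63 and 9.41 in IP14D-1, 7.84, 8.02 and 7.47 in IP14D-101, 8.66, 8.60 and 8.53 in IP20D-3, and 7.98, 7.98 and 7.91 in IP36D-3. R1, ESC2 and IP14D-1 overlapped at the top, IP20D-3 was lower without overlap, and IP36D-3 and IP14D-101 overlapped at the bottom. Log2 differences of Plagl1 from ESC2 were -1.72 ± 0.14 in IP14D-101 (adjusted p = 1.06e-08) and -1.53 ± 0.14 in IP36D-3 (adjusted p = 1.39e-07), and IP36D-3 was 3.04-fold below IP14D-1. Averaged with its 2 other probe sets (means 4.55 and 4.97), these were -0.70, -0.65 and -0.71, without calls. In the dimmer of the 2, IP36D-3 stood at 4.76, above ESC2 at 4.52 and IP14D-1 at 4.55.

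Sfmbt2 on chromosome 2, a Polycomb-group protein from the paternal copy, was lower in every iPS line than in either ES line. It read 9.64, 9.83 and 9.66 in R1, and 9.86, 9.61 and 9.75 in ESC2. The iPS lines read 8.56, 8.63 and 8.77 in IP14D-1, 8.08, 8.16 and 7.79 in IP14D-101, 7.81, 7.64 and 7.67 in IP20D-3, and 8.32, 8.37 and 8.27 in IP36D-3. In the probe set used, both ES lines overlapped, and every iPS array was below every ES array. Sfmbt2 was called lower than ESC2 in all 4 iPS lines. The log2 differences were -2.03 ± 0.10 in IP20D-3, -1.73 ± 0.10 in IP14D-101, -1.42 ± 0.10 in IP36D-3 and -1.09 ± 0.10 in IP14D-1. Its second probe set (mean 5.02) shared each direction, but there the ES lines stood apart. Line means in it were 5.28 in R1, 6.70 in ESC2 and 3.97 to 4.99 in the iPS lines. Zdbf2 on chromosome 1, a zinc finger gene from the paternal copy, read 8.33, 8.46 and 8.25 in R1, and 9.35, 9.32 and 9.27 in ESC2. Its iPS arrays read 8.23, 8.40 and 8.50 in IP14D-1, 8.67, 8.91 and 8.02 in IP14D-101, 9.22, 9.26 and 9.27 in IP20D-3, and 7.52, 7.47 and 7.62 in IP36D-3. IP36D-3 was below all other arrays, while ESC2 and IP20D-3 lay together at the top. Zdbf2 in IP36D-3 fell 3.43-fold below ESC2 (adjusted p = 7.07e-08) and stood 3.29-fold below IP20D-3. Gpr1, its neighbour and named after its values were seen, was at 5.44 ± 0.43 in IP36D-3 and at or under 4.13 in the other lines.

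Impact, which restrains the amino acid stress kinase GCN2 and is expressed from the paternal copy, read 9.22, 9.31 and 9.17 in R1, and 9.71, 9.75 and 9.83 in ESC2. Among iPS lines it stood at 10.07, 10.09 and 9.91 in IP14D-1, 8.57, 8.60 and 8.41 in IP14D-101, 9.56, 9.61 and 9.89 in IP20D-3, and 9.39, 9.31 and 9.20 in IP36D-3. IP14D-101 was below all other arrays, 2.35-fold under ESC2 (adjusted p = 4.14e-09), and -0.87 without a call over all 3 probe sets. H13, a signal peptide peptidase of chromosome 2 whose maternal copy makes the full-length transcript, read 8.66, 8.43 and 8.73 in R1, and 7.18, 7.11 and 7.16 in ESC2. Values in iPS lines were 7.62, 7.56 and 7.60 in IP14D-1, 7.25, 7.15 and 7.49 in IP14D-101, 7.31, 7.37 and 7.46 in IP20D-3, and 8.37, 8.55 and 8.53 in IP36D-3. R1 and IP36D-3 overlapped at the top, away from the other 4 lines. H13 rose over ESC2 by 1.46 ± 0.09 in R1 and 1.33 ± 0.09 in IP36D-3 in this probe set, and IP20D-3 was 2.15-fold below IP36D-3. Of the 5 other probe sets of H13, with means of 3.45 to 5.07, 2 shared these rises and 3 went the other way, and the mean over all 6 gave 0.01, 0.11 and -0.30, without calls. Gnas, the stimulatory G protein subunit, had line means of 10.66 to 11.51 and no call. Inpp5f (6.60 to 7.24), the amino acid transporter Slc38a4 (9.38 to 9.94) and Commd1 (9.31 to 10.04) were not called either. The other probe set of Slc38a4, with a mean of 9.18, was less even, from 8.83 in IP14D-1 to 9.91 in ESC2. Nap1l5 was called lower in IP20D-3 than in IP14D-1 (3.42 against 4.51), both under the dim reference and -0.9987 after repeated quantile normalisation, and Rasgrf1 stayed dim (3.10 to 3.77).

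**Figure D3:**
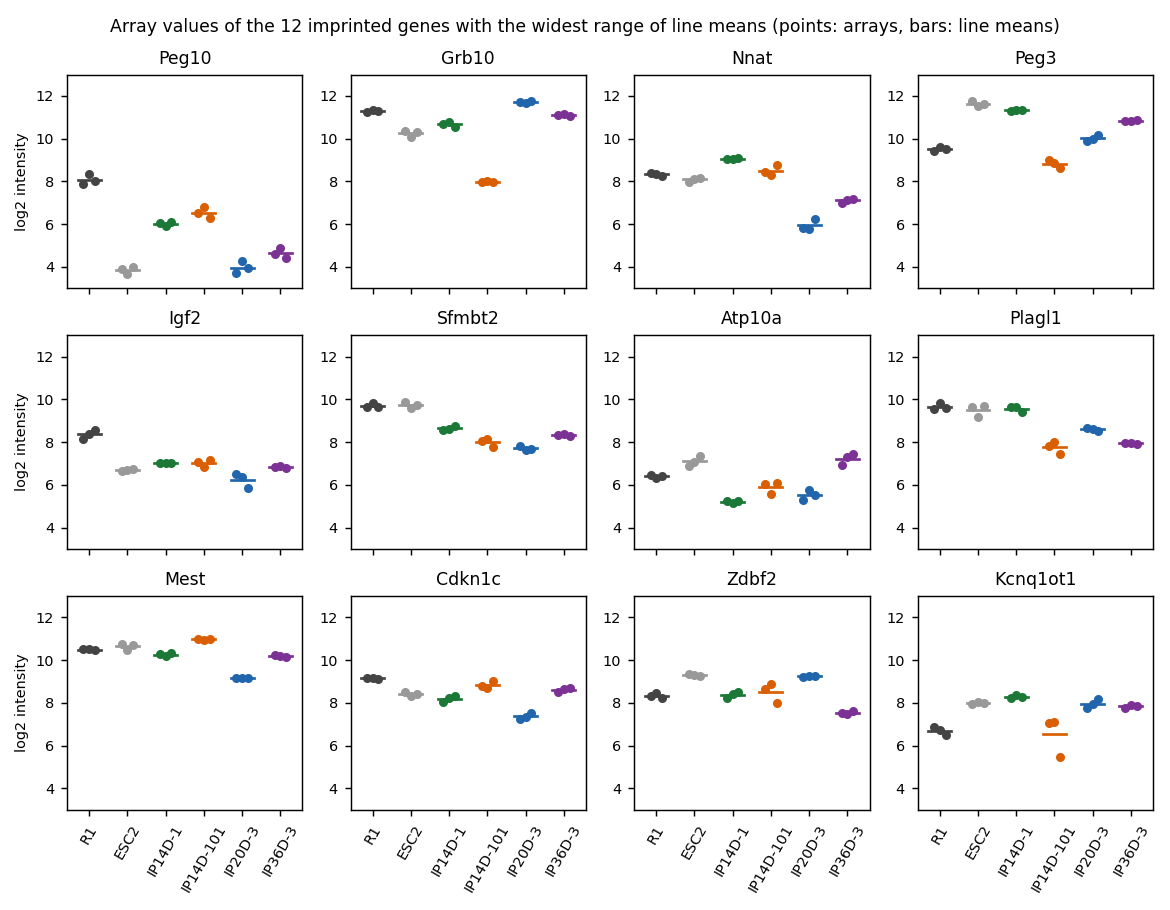
Log2 intensity on each array (points) and line mean (bars) of the 12 imprinted genes with the widest range of line means, on a common axis. Peg10 spans 3.85 in ESC2 to 8.08 in R1 and Grb10 7.99 in IP14D-101 to 11.71 in IP20D-3, and IP14D-101 replicate 3 stands apart from its line for Kcnq1ot1.

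Each line was then set against ESC2, the ES line that shares its strain label with IP14D-1, IP20D-3 and IP36D-3. These contrasts share the ESC2 arrays and are not independent. In IP14D-101, 12 of the 43 genes were called (8.73% of all genes), 11 of them lower (4.06% of all genes) and Peg10 higher (4.67%). In IP20D-3, 9 were called (8.6% of all genes), 8 lower (3.38%) and Grb10 higher (5.22%). In R1, 8 were called (8.13% of all genes), with Peg10, Igf2, H13, Sgce and Grb10 higher (4.38%) and Peg3, Ube3a and Kcnq1ot1 lower (3.75%). In IP36D-3, 6 were called (3.38% of all genes), H13 higher (1.91%) and 5 lower (1.47%). In IP14D-1, 4 were called (3.44% of all genes), Peg10 higher (2.08%) and Atp10a, Magel2 and Sfmbt2 lower (1.36%). Among genes with a highest line mean of at least 6, the shares of members and of all such genes were 33.3% and 14.1% in IP14D-101, 25.0% and 13.2% in IP20D-3, 22.2% and 13.4% in R1, 16.7% and 5.39% in IP36D-3, and 11.1% and 5.65% in IP14D-1. After repeated quantile normalisation the genes called in R1 split into 616 higher and 816 lower in place of 797 and 682, and those in IP36D-3 into 196 and 338 in place of 347 and 268, while members split into 5 and 3 in R1 and 1 and 6 in IP36D-3.

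Paternally expressed genes, 23 of the 43 measured, made up 7 of the 11 falls against ESC2 in IP14D-101, 6 of the 8 in IP20D-3 and 4 of the 5 in IP36D-3. These counts are small, and the contrasts share the ESC2 arrays. The median difference of the paternally expressed genes was -0.27, -0.32 and -0.26 in those lines, against 0.09, 0.02 and 0.20 for maternally expressed genes and 0.15, 0.01 and 0.05 for all genes. In IP14D-1 the medians were 0.25 and 0.03 against 0.06, and in R1 -0.11 and 0.19 against 0.15. These are descriptions of the lists and were not tested as such. IP14D-101 is also the line with endoderm markers and another strain label, and the fibroblast list was lower than in ESC2 in IP14D-101 (7 of 29 called lower, 1 higher), IP20D-3 (9 lower) and IP36D-3 (9 lower). The part of these, and of the actin quotient of ESC2, in the falls was not tested. For R1 and IP14D-101, strain and line cannot be told apart.

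**Figure D4:**
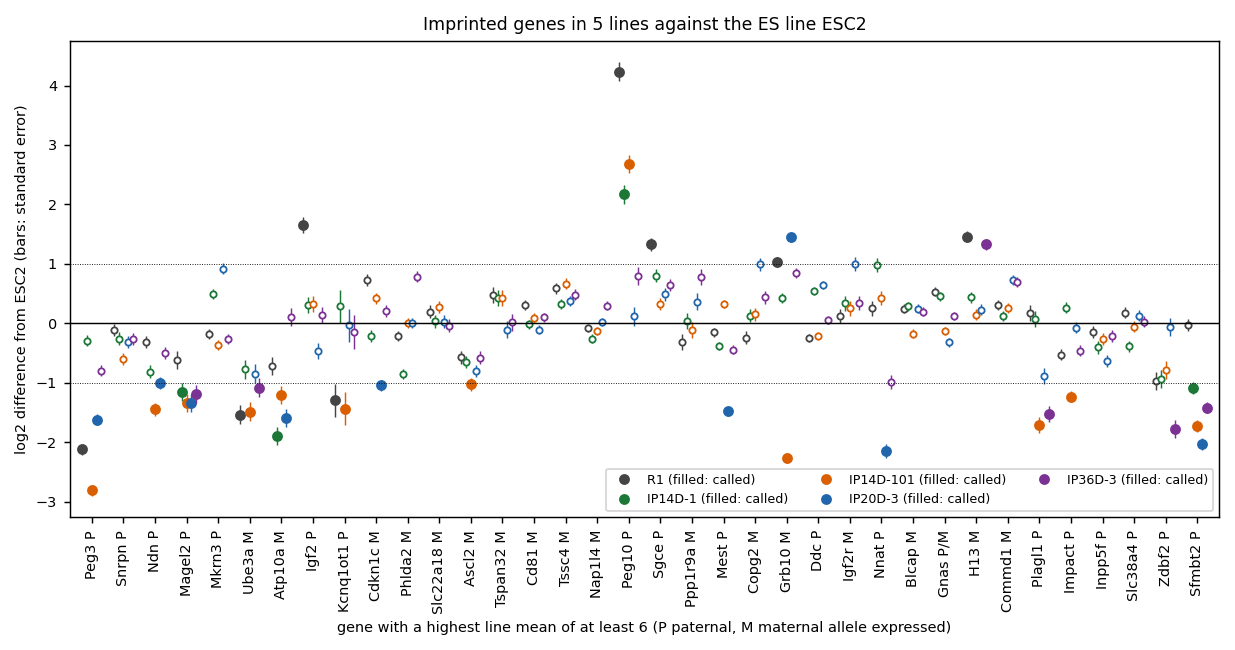
Log2 difference from ESC2 (points, with standard errors from limma as bars) of the 36 imprinted genes with a highest line mean of at least 6, in 5 lines. Filled points were called at an adjusted p under 0.05 and a difference of at least 1 (dotted lines), with Peg10 at the top in R1 (4.23) and Peg3 at the bottom in IP14D-101 (-2.81).

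Among the 3 iPS lines of strain label B6 x D2 F1, which differ in neither strain label nor cell type, IP20D-3 and IP14D-1 differed in 6 of the 43 genes (4.96% of all genes), of which Nnat, Peg10, Peg3, Mest and Nap1l5 were lower in IP20D-3 (2.15% of all genes) and Grb10 higher (2.8%). IP36D-3 and IP14D-1 differed in 5 (3.39% of all genes), with Nnat, Plagl1 and Peg10 lower in IP36D-3 (1.5%) and Atp10a and Phlda2 higher (1.89%). IP20D-3 and IP36D-3 differed in 7 (4.24% of all genes), with Atp10a, Cdkn1c, Nnat, H13 and Mest lower in IP20D-3 (1.89%) and Zdbf2 and Mkrn3 higher (2.36%). Among genes with a highest line mean of at least 6, the shares of members and of all such genes were 13.9% and 7.85%, 13.9% and 5.6%, and 19.4% and 6.54% in these 3 pairs. After repeated quantile normalisation the genes called between IP36D-3 and IP14D-1 split into 249 higher and 344 lower in place of 344 and 273, with the members at 2 and 3. Nnat was called in all 3 pairs, in the order IP14D-1, IP36D-3, IP20D-3. The fibroblast list was lower in IP20D-3 and IP36D-3 than in IP14D-1 in 12 of 29 genes each, and its part in these differences was not tested.

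Between the cell types, compared over line means (4 iPS against 2 ES), 0 of the 43 genes were called in limma (0% of all genes), and 3 genes had an unadjusted p under 0.05. These were Sfmbt2 (-1.55 ± 0.27, means 8.17 ± 0.41 in iPS and 9.72 ± 0.02 in ES lines), Magel2 (-0.95 ± 0.20) and Ndn (-0.78 ± 0.27), all with an adjusted p of 1. Among all genes 700 reached that level. Line means of 8 of the 43 members (18.6%) did not overlap between the cell types, as for 9.89% of all genes, a count that rests on 6 lines and was not tested. Of these, Sfmbt2, Magel2, Ndn, Ascl2, Inpp5f and Snrpn were lower and Copg2 and Igf2r higher in every iPS line, in the probe sets used. For Ascl2 this rests on 5.886 in R1 against 5.884 in IP36D-3. In another bright probe set each, line means overlapped. There Ndn had 8.182 in IP36D-3 and 8.178 in ESC2, and Igf2r 7.30 in IP36D-3 and 7.33 in R1. With arrays in place of lines as replicates, Sfmbt2 and Plagl1 were called (1.67% of all genes). With the line as a random block in limma, Sfmbt2 alone was called (0.209% of all genes, adjusted p = 0.00401). In the B6 x D2 lines alone, with ESC2 as the only ES line and arrays as replicates, 4 members were called (3.13% of all genes). This comparison shares its arrays with the contrasts against ESC2 and cannot tell cell type from line.

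Genes that keep or erase imprints varied among the same lines. Of 23 measured genes of this list, 13 were called in the F test. The share was 25.9% of all genes, and 40.9% of those with a highest line mean of at least 6. Zfp57, which holds methylation at imprinted loci, stood at 8.86 ± 0.12 in R1, 6.26 ± 0.05 in ESC2, 8.70 ± 0.09 in IP14D-1, 9.57 ± 0.04 in IP14D-101, 7.11 ± 0.21 in IP20D-3 and 7.03 ± 0.06 in IP36D-3. It was called higher than ESC2 in R1, IP14D-1 and IP14D-101. Dppa3, which shields imprints in the zygote, was lowest in R1 (6.65 ± 0.06) and between 8.40 and 9.43 elsewhere. Dnmt3l, a cofactor of the de novo methyltransferases, ranged from 10.82 to 12.02, and the ZFP57 partner Trim28 from 12.49 to 12.75. In IP20D-3, the log2 difference from ESC2 was -1.67 for Dnmt3a, -1.63 for Dnmt3b and 1.61 for Tet2, which oxidises methylcytosine, all called. In IP36D-3, 0 of 23 were called against ESC2 (3.38% of all genes). With so low a share, a count of 0 in a list of this size says little.

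Of 23 measured imprinted genes outside the member list, 15 were called in the F test. The share was 25.9% of all genes, and 40.9% of those with a highest line mean of at least 6. Meg3 of the Dlk1-Dio3 region stood at 10.19 ± 0.11 in R1, 11.34 ± 0.04 in ESC2, 10.89 ± 0.08 in IP14D-1, 9.71 ± 0.51 in IP14D-101, 5.23 ± 0.11 in IP20D-3 and 5.90 ± 0.13 in IP36D-3. Of 18 measured genes of the IGF axis and growth control, 11 were called in the F test (25.9% of all genes). Igfbp3, which binds IGFs outside the cell, was called lower than ESC2, with -2.70 in IP20D-3, -1.35 in IP14D-101 and -1.24 in IP36D-3. Cdkn1b, a cell-cycle inhibitor of the Cdkn1c family that is not imprinted, was called higher than ESC2 in all 4 iPS lines, by 1.09 to 1.80. Its line means were 6.06 in ESC2, 6.52 in R1 and 7.15 to 7.87 in the iPS lines. Over line means, iPS minus ES lines was 1.11 and not called.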

How the data were processed

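The deposited intensities were made by the authors from Affymetrix arrays with RMA, as the series' design text states, which corrects background, equalises quantiles and summarises probes. The RMA version was not given in the sources used here. Values were linear, with medians of 29.1 to 30.5 per array, and log2 was taken here. The 64 control probe sets were left out. Probe sets with 1 symbol in the platform annotation (34945 of 45101) were kept, 932 had several symbols and 9160 none, and 34741 symbols were found by gene identifier in RefSeq GRCm38.p6 with 0 changed. Each gene took its probe set with the highest mean.

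limma 3.58.1 (R 4.3.3) fitted 1 mean per line over 18 arrays (12 residual degrees of freedom), and the cell types over 6 line means. Adjusted p-values are Benjamini-Hochberg values over 18193 genes. The fit was tested on simulated data drawn at the measured levels, where 100% of 200 genes changed by a log2 of 1.5 in IP14D-1 minus ESC2 were recovered among 18193 genes, with 1 false call. Array values are printed for members called in the F test with a highest line mean of at least 6, and of genes outside the members a few preset names and called genes of preset lists, whose chromosomes and promoters come from RefSeq. The members, lists and rules were chosen with earlier results of these data known. Alternatives were the replicate block, 2 scalings, all probe sets, a filter, a pseudocount, array weights and leaving out each array. The number of arrays limits the precision. Tables and plots were made with Python 3.11.15, pandas 2.3.3, numpy 2.4.6 and matplotlib 3.10.9.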

Additional observations from a re-analysis of the deposited data

Results flagged for a closer look

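Grb10 was called in opposite directions against ESC2 in 2 iPS lines, with 1.45 in IP20D-3 and -2.27 in IP14D-101. In limma the difference between these lines was 3.72 ± 0.08, a contrast in which 10.1% of all genes were called. The pair was picked for its opposite calls, and the difference restates them, so it is a description and no further evidence. Strain label and endoderm markers also differ between these lines, and their part was not tested.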

How the results depend on the processing

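Of the 57 calls of members between lines, 57 kept direction and call with equal array medians, with array weights and with the replicate block, 55 after repeated quantile normalisation, 49 with a pseudocount of 16 and 40 with the mean of all probe sets, and 0 reversed. With only genes at or above the median level, 56 of 56 kept theirs. The mean of all probe sets left 3 of 8 members called in R1 minus ESC2, and the cause was not tested. That is 3 of 43 members beside 1162 of 18193 genes, where the main fit called 8 of 43 beside 1479 of 18193. The larger share of members than of all genes in R1 was thus mostly lost in this setting, and it depends on the probe sets used. For iPS minus ES lines, fixed line means over 18 arrays called 2 members (303 of 18193 genes) and the line as a random block 1 (38 genes), against 0. The B6 x D2 lines alone, with ESC2 as the only ES line and arrays as replicates, gave 4 (Sfmbt2, Magel2, Atp10a and Peg10, with 569 genes in all). Leaving out each array gave 23 to 25 members in the F test, 11 to 12 in IP14D-101, 8 to 11 in IP20D-3, 7 to 8 in R1, 6 to 7 in IP36D-3 and 4 to 5 in IP14D-1, and 51 of 57 calls held in all 18 fits. The F test over the 5 lines other than ESC2, chosen after seeing the data, called 21 (3704 of 18193 genes). The median difference of all genes was 0.15 in R1 and in IP14D-101 minus ESC2, and 0.02 and 0.03 after repeated quantile normalisation. With the replicate number as a block, 24 members were called in the F test and 8, 12, 9, 6 and 4 in R1, IP14D-101, IP20D-3, IP36D-3 and IP14D-1 minus ESC2, the counts without it. Deviations of same-numbered arrays of different lines correlated between -0.32 and 0.38 (mean 0.06), and those of other arrays between -0.46 and 0.32 (mean -0.03). Of the 18 arrays, 13 correlated best with their own number. The labels do not say that same-numbered arrays were handled together, and the main fit left the number out. No depth is given by arrays, and levels near the dim reference have uncertain differences.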
